A study of Mus musculus with 2 samples.

Results

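A set of 7 G protein-coupled receptors for metabolites and lipid mediators, of the 32285 genes in the count table, are described here in microglia of PSAPP mice. They are Gpr84, Hcar2, S1pr1, Ptafr, Ptger4, Ltb4r1 and Gpr165, which were chosen by their measured levels in these same cells. Their levels by cell state and by treatment are therefore a description, with no test. PSAPP mice carry the APPswe and PS1 deltaE9 transgenes and deposit amyloid plaques. All mice of both groups carried them, and no group without the transgenes is used here. Mice were given LEM (lemborexant, an orexin receptor antagonist) at 30 mg/kg per day or VEH (vehicle) by oral gavage for 30 days, from 9 to 10 months of age. Cortex and hippocampus were dissociated, live CD45lo CD11b+ cells were sorted, and 5 mice of both sexes were pooled into 1 library of 5′ single-cell RNA sequencing per treatment, so mice cannot be told apart and treatment cannot be told apart from library.

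There were 18374 VEH cells with 116229678 unique molecular identifier (UMI) counts in all (median 5971 per cell), and 24392 LEM cells with 160752298 counts (median 6034). Levels are CPM, the counts of a gene scaled to a total of 1e6 in the same cells, with no scaling for how well each transcript is captured, so no level is compared between genes. Intervals are exact at 95% and cover counting error only. Cells called female or male from sex-linked transcripts give 2 pools per library and show a spread that the pooled libraries hide. The cell names carry a library and a running number, so barcodes shared by the libraries could not be counted. The sorted cells bore the label microglia: of 5 microglial markers all 5 were detected, with a summed level of 27750 CPM in VEH and 28223 in LEM. Markers of other cells were counted too. Summed over 6 genes each, neuronal markers were at 0.929 and 0.734 CPM and astrocyte markers at 4.31 and 4.49, the 7 T and B cell markers were at 0.189 and 0.224 with 3 of 7 at 0 in both libraries, and the 5 monocyte markers were at 8.56 and 10.0. The lists of 6 endothelial (529 and 573 CPM) and 6 neutrophil markers (323 and 354) were higher, nearly all from Bsg and Csf3r, while Cldn5 held 0 and 1 counts and S100a8 0 and 9. The 5 oligodendrocyte markers were at 57.9 and 61.8 CPM, most of it Mag and Mbp. Of these lists the 6 choroid plexus markers differed most, with 435 CPM in VEH and 1315 in LEM.

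All 7 are receptors of the cell membrane, of the family that couples to heterotrimeric G proteins, and 6 have known small ligands. Gpr84 responds to medium-chain fatty acids, and Hcar2 to the ketone body beta-hydroxybutyrate and to niacin. S1pr1 binds sphingosine-1-phosphate, Ptafr binds platelet-activating factor, Ptger4 (EP4) binds prostaglandin E2 and Ltb4r1 (BLT1) binds leukotriene B4, lipids that are made from membranes and steer the movement and the activation of leukocytes. Gpr165 is an orphan receptor. Microglia are the resident macrophages of the brain, and those near plaques take on a disease-associated (DAM) state, in which homeostatic genes are lowered and genes of lipid handling and phagocytosis are raised.

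The 7 genes lie on 6 chromosomes of the GRCm38 build: Gpr84 on 15:103308235-103310612 (minus strand), Ptger4 on 15:5206661-5244187 (minus), Hcar2 on 5:123863570-123865499 (minus), S1pr1 on 3:115710433-115715072 (minus), Ptafr on 4:132564067-132582683 (plus), Ltb4r1 on 14:55765962-55768494 (plus) and Gpr165 on X:96713441-96719388 (plus). Gpr84 overlaps an antisense gene, Gm49482, which held 247 VEH and 474 LEM counts. Ptger4 overlaps Ttc33 on the other strand, which held 2724 and 3647. Whether counting used the strand is not given in the sources used here, so reads of these overlaps may not be told apart. Hcar1, the lactate receptor next to Hcar2, held 32 and 59 counts.

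Sequence before the start site was in the RefSeq table (GRCm38.p6) for 5 of the 7 genes, and 3 are printed. They are Ptger4 and Gpr165, which moved over 2-fold in opposite directions between cell states, and Ptafr. Gpr84 is left out because only 76 bases of its window lie before both its RefSeq and GENCODE starts, and Ltb4r1 because of its few counts. Each is the 250 bases before the RefSeq start, except that Gpr165 ends at the base before its earlier GENCODE start, and each is written 5′ to 3′ on the strand of its gene, with any whole match to the motifs searched in capitals. Ptger4 covers chr15:5244188-5244437 on the minus strand, Ptafr chr4:132563817-132564066 on the plus strand and Gpr165 chrX:96713218-96713440 on the plus strand.
Ptger4: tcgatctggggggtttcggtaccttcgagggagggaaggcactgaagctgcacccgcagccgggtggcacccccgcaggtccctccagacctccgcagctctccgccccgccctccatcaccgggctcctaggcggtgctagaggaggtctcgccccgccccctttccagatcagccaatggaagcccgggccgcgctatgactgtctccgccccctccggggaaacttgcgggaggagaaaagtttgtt
Ptafr: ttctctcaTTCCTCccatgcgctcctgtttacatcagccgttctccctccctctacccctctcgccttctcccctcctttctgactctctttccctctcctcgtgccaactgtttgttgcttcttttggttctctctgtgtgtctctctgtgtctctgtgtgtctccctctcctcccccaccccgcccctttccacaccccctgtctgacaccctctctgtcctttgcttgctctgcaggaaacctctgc
Gpr165: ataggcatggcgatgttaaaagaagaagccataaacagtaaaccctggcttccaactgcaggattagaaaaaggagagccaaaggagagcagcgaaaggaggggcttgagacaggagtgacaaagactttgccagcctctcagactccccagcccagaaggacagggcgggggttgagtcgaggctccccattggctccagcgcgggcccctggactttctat
The motifs were searched on both strands of the 250 bases, as GAGGAA (the core bound by PU.1, the macrophage lineage factor), TGANTCA (AP-1), GGGNNTTCC (NF-kB), GAAANNGAA (interferon response), CACGTG (E-box), TTNNGCAA (C/EBP) and the word TATAAA, known as the TATA motif. None of these words overlapped another in the matches found. The Ptger4 window, with a GC content of 66.8% against a median of 52.4% over 32851 promoters, held 0 of the 7 motifs. The capitals in Ptafr mark a PU.1 core on the opposite strand, a word found in 23.3% of all promoter windows. Ltb4r1 held the same word, 129 bases before its start. Gpr165 held TATAAA from 30 bases before the RefSeq start, a word in 12.4% of all windows. The stretch printed ends within it, so its first 3 bases are the last ones shown, in lower case. The Gpr84 window held 0 matches.

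Between the libraries, the metabolite receptors and S1pr1 were higher in LEM, while the log2 ratios of Ptafr, Ptger4 and Gpr165 lay between −0.12 and 0.09. Of the 7 genes, 6 were detected in at least 1% of the cells of a library and Ltb4r1 was not. Of the 6, 3 were higher in LEM by at least 0.32 on the log2 scale, beside 3.98% of 11910 genes, and 0 were lower, beside 2.87%. Since these values chose the genes, nothing is read from the counts. The median log2 ratio of LEM over VEH was 0.25 over the 6 and 0.01 over all genes tested.

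Gpr84 had 13238 counts in VEH and 24380 in LEM, which are 114 and 152 CPM, for a LEM over VEH ratio on the log2 scale of 0.41 (0.38 to 0.44). Its levels in the 4 sex pools were 117 and 113 CPM in VEH females and males, and 166 and 139 in LEM females and males. Both LEM pools lay above both VEH pools, by 0.50 on the log2 scale in females and 0.30 in males. Cells with at least 1 count made up 42.2% of VEH and 51.4% of LEM. After each cell was thinned to 2000 counts, with 1305 VEH and 1215 LEM cells under that depth left out, the shares were 19.0% and 24.0%, so the order did not turn with depth.

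Hcar2, the other metabolite receptor, had the highest ratio of the 6. It had 1590 and 3462 counts, or 13.7 CPM in VEH and 21.5 in LEM, which is 0.65 apart on the log2 scale (0.57 to 0.74). The pools were at 14.0 and 13.7 CPM in VEH females and males and at 23.0 and 20.6 in LEM. They did not overlap between libraries, and within a library the sexes were close. Cells with a count made up 7.04% of VEH and 11.2% of LEM, and 2.5% and 3.92% after thinning.

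S1pr1 was higher in LEM in both sexes, but by unequal amounts. It had 4381 and 8496 counts, which are 37.7 (VEH) and 52.9 CPM (LEM), for a log2 ratio of 0.49 (0.43 to 0.54). The pools were at 41.5 (VEH females), 35.5 (VEH males), 47.4 (LEM females) and 58.0 CPM (LEM males). Females were the higher sex in VEH and the lower one in LEM, and the ratio was 0.19 (0.10 to 0.28) in females and 0.71 (0.63 to 0.78) in males. The difference between the sexes was not tested, because each pool holds an unknown mix of few mice.

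Ptafr was nearly level. It had 8338 and 11392 counts, at 71.7 (VEH) and 70.9 CPM (LEM), and its log2 ratio was −0.02 (−0.06 to 0.02). The 4 pools ranged only from 69.6 to 72.7 CPM, and each library's pools overlapped the other's. The narrow interval covers counting error alone and does not show that mice of the 2 groups were alike.

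Ptger4 was sparse, with 213 and 314 counts, at 1.83 CPM in VEH and 1.95 in LEM. Its log2 ratio was 0.09 (−0.16 to 0.35), with 0.26 (−0.20 to 0.73) in females and 0.05 (−0.32 to 0.43) in males. A ratio of the size seen for Gpr84 lay outside the interval of all cells but within those of both sexes. Few cells held a count (1.02% of VEH and 1.15% of LEM), and the order of the shares after thinning was the opposite, 0.357% and 0.298%, so no order is read.

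Ltb4r1 was rare, in 0.142% of VEH cells (26 counts) and 0.410% of LEM cells (104 counts). The levels were 0.224 CPM (0.146 to 0.328) and 0.647 CPM (0.529 to 0.784), a log2 ratio of 1.53 (0.90 to 2.21). The pools were at 0.246 and 0.137 CPM in VEH females and males and at 0.598 and 0.800 in LEM, from 8 to 59 counts each. With the cells that held an astrocyte or endothelial marker left out, which kept only 2513 VEH and 2598 LEM cells because the endothelial marker Bsg was in most cells, the ratio was −0.08, and with Bsg disregarded it was 1.43. Its neighbour Ltb4r2, the low-affinity leukotriene B4 receptor that ends 823 bases before it, had 65 and 110 counts and a ratio of 0.29 (−0.16 to 0.76).

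Gpr165 differed between the sexes, and more so in VEH than in LEM. It had 5108 and 6515 counts, at 43.9 (VEH) and 40.5 CPM (LEM), and its log2 ratio was −0.12 (−0.17 to −0.06). The pools were at 33.1 (VEH females), 50.1 (VEH males), 37.8 (LEM females) and 43.7 CPM (LEM males). Females were lower than males in both libraries, by −0.60 on the log2 scale (−0.70 to −0.50) in VEH and −0.21 (−0.29 to −0.13) in LEM, for this gene on the X chromosome. The direction of LEM over VEH turned with sex, from 0.19 in females to −0.20 in males.

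**Figure D1:**
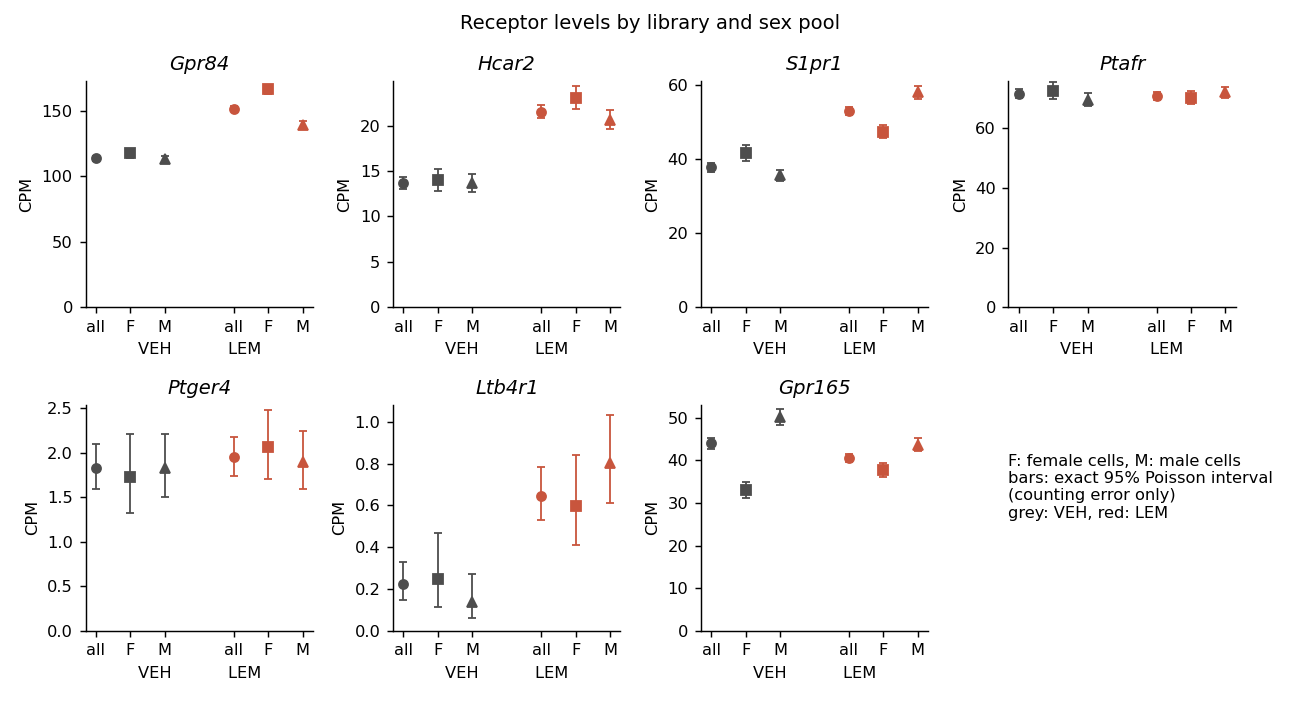
Levels (CPM, linear axis from 0) of the 7 receptors in all cells and in the cells called female (F) or male (M) of the VEH and LEM libraries, with exact 95% Poisson intervals as bars. The LEM pools of Gpr84, Hcar2 and S1pr1 lie above the VEH pools, the Ptafr pools lie from 69.6 to 72.7 CPM, and the Gpr165 pools differ most by sex in VEH, at 33.1 and 50.1 CPM.

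Scaling by the median of ratios moved the 7 values by 0.01, and leaving out droplets of choroid plexus and border macrophages gave 0.42 for Gpr84, 0.66 for Hcar2 and 0.49 for S1pr1.

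Cells were next sorted into exclusive gates by raw counts of marker genes, none of which is among the receptors. The choroid plexus gate held droplets with at least 100 counts of Ttr. Gates for border-associated macrophages (BAM), proliferating cells and interferon-responsive cells asked for 3 markers of each list, and the DAM gate for 3 of Cst7, Lpl, Spp1, Itgax and Gpnmb, the 5 of 6 listed markers that were measured. The Ccl3 Ccl4 gate asked for 10 counts of both chemokines in sum, the MHC class II gate for 2 markers, the intermediate gate for 1 or 2 DAM markers and the homeostatic gate for 0 DAM markers with 2 of P2ry12, Tmem119 and Cx3cr1. The homeostatic gate held 12866 VEH and 15950 LEM cells and the DAM gate 468 and 623. Markers of the gates moved as the gates require, and the 3 microglial markers that no gate used (Ctss, C1qa and C1qb) were at 20208 (VEH) and 20954 (LEM) CPM in sum in homeostatic and at 20650 and 20915 CPM in DAM cells. In proliferating cells their sum was lower, at 14180 and 14921 CPM. DAM cells were deeper, with a median of 11361 (VEH) and 12071 (LEM) counts against 5547.5 and 5621 in homeostatic cells, which raises shares of cells with a count but not CPM.

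The receptors fell into 3 kinds by their level in the DAM gate. Hcar2 and Ptger4 were over 2-fold higher than in the homeostatic gate in both libraries, beside 3.18% of 11910 genes, and Gpr165 was over 2-fold lower, beside 4.63%. Gpr84 and S1pr1 were higher by less than that in at least 1 library, and Ptafr was lower by less than that. The median ratio over all genes tested was −0.31 in VEH and −0.32 in LEM, so that relative to it S1pr1 was also past 2-fold in both.

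Gpr84 was at 104 CPM in homeostatic, 120 in intermediate and 179 in DAM cells of VEH, and at 139, 159 and 198 CPM in LEM. The log2 ratio of DAM over homeostatic was 0.78 (0.68 to 0.88) in VEH and 0.51 (0.43 to 0.59) in LEM, and 0.49 to 0.86 over the 4 sex pools. With the gates set on cells thinned to 2000 counts it was 1.03 in VEH and 0.30 in LEM, both outside those intervals. Its order over the microglial gates began with DAM, then interferon (159 and 196 CPM), whose interval overlapped that of DAM in both libraries. It ended with homeostatic cells in LEM and with the MHC class II gate in VEH (93.9 CPM, 76.1 to 115), which did not differ from homeostatic beyond its interval. In thinned cells the share with a Gpr84 count was 17.6% of homeostatic and 29.8% of DAM cells in VEH, and 22.8% and 30.4% in LEM.

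Hcar2 had a steeper course. It was at 10.1 CPM in homeostatic, 14.6 in intermediate and 39.8 in DAM cells of VEH, and at 16.6, 23.6 and 49.5 CPM in LEM. The ratio of DAM over homeostatic was 1.98 (1.75 to 2.20) in VEH and 1.58 (1.41 to 1.74) in LEM, with pools from 1.18 in LEM females to 2.25 in VEH males. The interferon gate came next (22.8 and 33.3 CPM), then the Ccl3 Ccl4 gate (18.6 and 28.0 CPM), with intervals that overlapped each other in both libraries. The proliferating gate, at 9.30 and 18.8 CPM from 14 and 44 counts, did not differ from the homeostatic gate beyond its interval.

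S1pr1 was highest in the DAM gate in both libraries and differed there in the size of the step. It was at 31.3 CPM in homeostatic and 80.1 in DAM cells of VEH, a ratio of 1.35 (1.20 to 1.5), and at 47.6 and 77.1 CPM in LEM, a ratio of 0.70 (0.57 to 0.82). The DAM levels of the libraries overlapped and the homeostatic levels did not. The Ccl3 Ccl4 gate was next in order (52.3 and 69.5 CPM), below the DAM gate beyond its interval in VEH and within overlapping intervals in LEM. In the proliferating gate S1pr1 was lowest of the microglial gates, at 21.3 and 28.2 CPM.

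Ptafr was lower in both the DAM and the proliferating gates. It was at 74.5 and 74.1 CPM in homeostatic cells, 47.9 and 46.9 in DAM cells and 36.5 and 34.2 in proliferating cells (VEH and LEM). The ratio of DAM over homeostatic was −0.64 (−0.82 to −0.46) and −0.66 (−0.82 to −0.50), and the 4 pools ran from −1.06 to −0.55. The ratio of proliferating over homeostatic was −1.03 and −1.12. Per 1000 counts of Ctss, C1qa and C1qb the 2 gates were less far apart, at 2.58 and 2.29 in proliferating against 3.69 and 3.53 in homeostatic cells. The share of cells with a count was higher in DAM cells as deposited (37.4% against 32.0% in VEH), but lower after thinning (10.2% against 13.6%), since DAM cells are deeper.

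Ptger4 was near absent from homeostatic cells, at 1.14 CPM in VEH and 1.20 in LEM from 83 and 112 counts. In DAM cells it was at 8.83 CPM (6.49 to 11.7) and 7.12 CPM (5.33 to 9.31), from 47 and 53 counts, ratios of 2.96 (2.41 to 3.49) and 2.57 (2.07 to 3.06). Proliferating cells were as high within their intervals, at 7.31 and 7.69 CPM, and so was the MHC class II gate at 4.89 and 7.47 CPM from 5 and 7 counts. The BAM gate, of 25 and 68 cells, had 3 and 11 counts, at 14.1 CPM (2.92 to 41.3) and 18.9 CPM (9.45 to 33.9). Of the 7 receptors it was the one whose point estimate was highest outside the microglial gates in both libraries.

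By CPM, Gpr165 had its highest point estimate in homeostatic cells. It was at 51.4 CPM in homeostatic, 36.8 in intermediate and 9.96 in DAM cells of VEH, and at 47.7, 38.1 and 9.00 CPM in LEM. The ratio of DAM over homeostatic was −2.37 (−2.79 to −1.98) and −2.41 (−2.78 to −2.06), and it lay between −2.82 and −2.33 in all 4 sex pools. With the gates set on cells thinned to 2000 counts it was further from 0, at −3.69 and −3.65. Proliferating cells were at 45.2 and 47.0 CPM, and the interval of their ratio over homeostatic cells held 0 in both libraries (−0.55 to 0.16 and −0.31 to 0.25). Per 1000 counts of Ctss, C1qa and C1qb the order was the opposite, with 3.19 and 3.15 in proliferating and 2.54 and 2.28 in homeostatic cells. The Ccl3 Ccl4 gate was lower, at 32.4 and 30.1 CPM.

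Ltb4r1 had 0 counts in the 468 VEH and 623 LEM cells of the DAM gate, which allows a level of up to 0.564 and 0.403 CPM at a floor of 3 counts. The homeostatic gate held 18 and 68 counts, at 0.246 and 0.727 CPM, so a level in DAM cells equal to the VEH homeostatic one was not detectable at this depth. In LEM the interval of the ratio of DAM over homeostatic cells lay below −0.51 on the log2 scale. All other gates held 0 to 15 counts, and 0 in the choroid plexus gate.

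**Figure D2:**
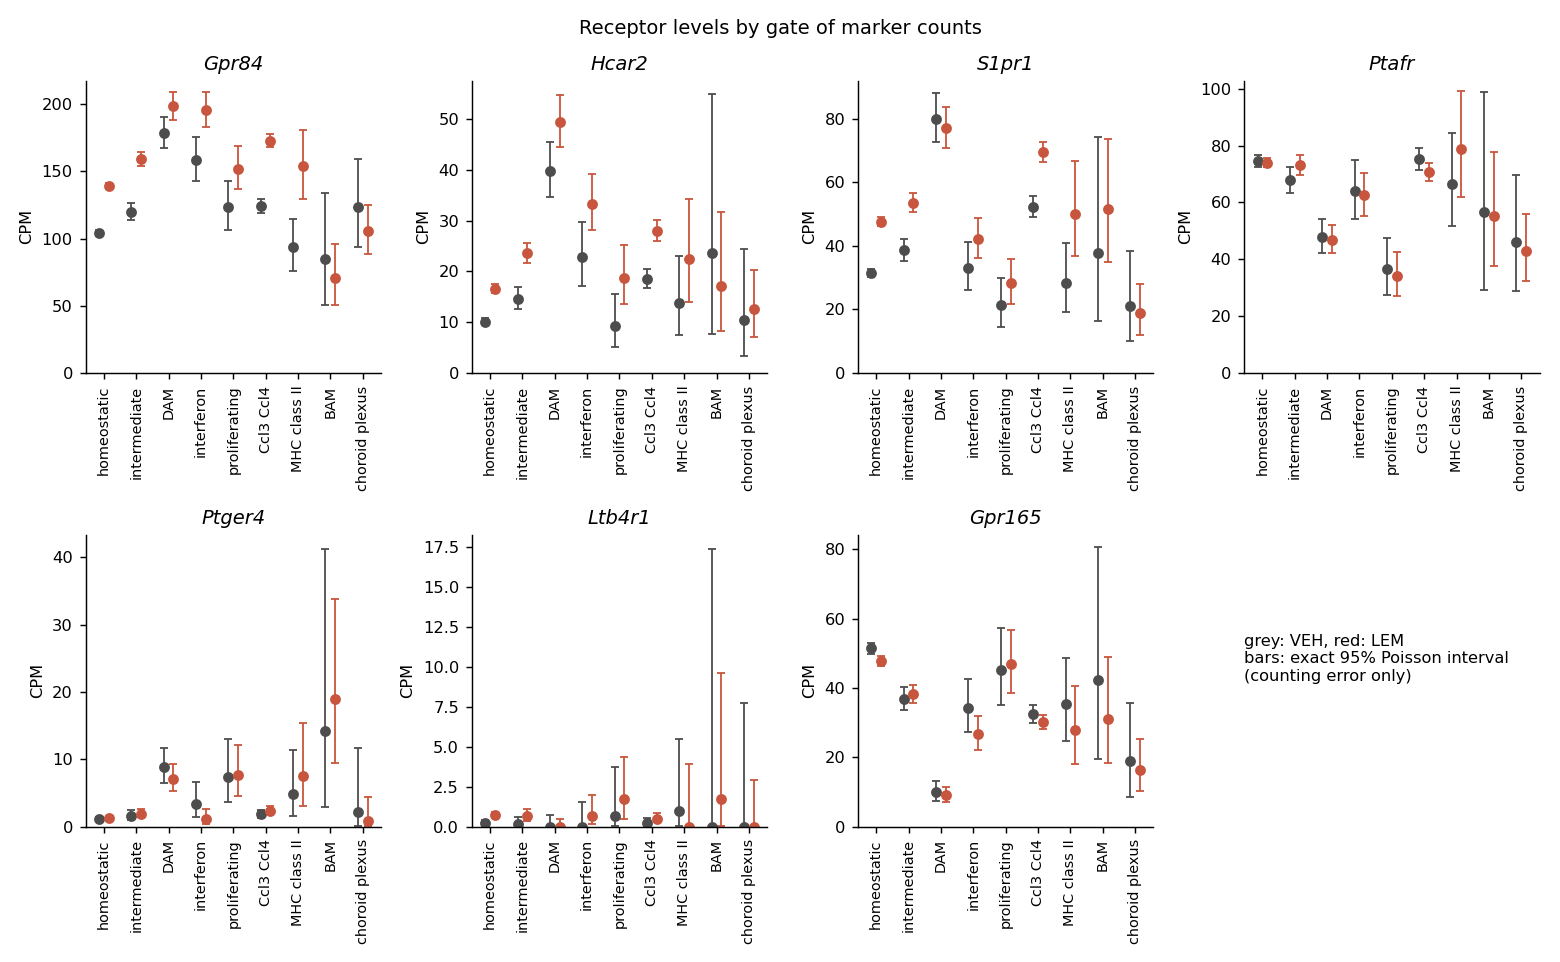
Levels (CPM, linear axis from 0) of the 7 receptors in 9 gates of marker counts, in VEH (grey) and LEM (red), with exact 95% Poisson intervals. Hcar2 and Ptger4 are higher and Gpr165 is lower in the DAM than in the homeostatic gate in both libraries, and the small BAM and choroid plexus gates have wide intervals.

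Counting the DAM markers in a cell, from 0 to 4 or more, gave a graded course with no gate order involved. Gpr165 was at 49.0, 35.0, 20.4, 12.2 and 7.36 CPM over the 5 steps in VEH and at 45.4, 36.2, 19.4, 10.2 and 7.31 in LEM. Its point estimate was lower at each further marker in both libraries, and the intervals of the last 2 steps overlapped in both, as did those at 2 and 3 markers in VEH. The Hcar2 point estimate was higher at each step, at 10.5, 17.6, 30.8, 35.5 and 45.0 CPM in VEH and 17.8, 25.3, 38.6, 48.0 and 51.4 in LEM. From 2 markers on, the intervals of neighbouring Hcar2 steps overlapped in both libraries. Ptafr went from 74.2 to 45.4 CPM in VEH and from 72.6 to 39.9 in LEM, with the first 2 steps overlapping in both libraries. Ptger4 went from 1.20 CPM at 0 markers to 13 at 4 or more in VEH, and from 1.30 to 7.87 in LEM, and the last 2 steps overlapped in both libraries. Gpr84 and S1pr1 had most of their difference by the third marker. S1pr1 was at 32.9, 43.1, 64.7, 83.9 and 74.0 CPM in VEH and at 49.5, 55.4, 79.1, 78.3 and 71.7 in LEM, so the libraries were apart at 0 markers and overlapped at 3 and at 4 or more.

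**Figure D3:**
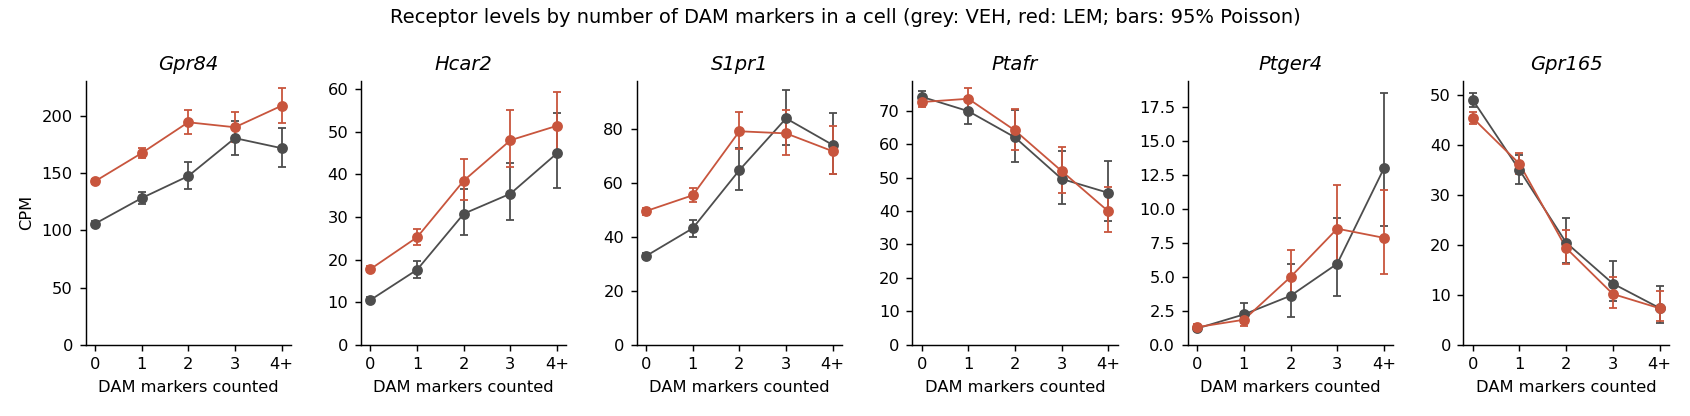
Levels (CPM) of 6 receptors by the number of the 5 measured DAM markers with a count in a cell, in VEH (grey) and LEM (red), with exact 95% Poisson intervals. Gpr165 goes from 49.0 to 7.36 CPM in VEH, Hcar2 from 10.5 to 45.0 CPM, and the 2 S1pr1 lines meet at 3 markers.

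Within gates, the difference between LEM and VEH was seen mainly outside the DAM gate. Gpr84 was higher in LEM in 7 of 7 microglial gates, with the interval above 0 in all 7, and had a log2 ratio of 0.42 (0.38 to 0.46) in homeostatic cells, 0.48 (0.41 to 0.55) in Ccl3 Ccl4 cells and 0.15 (0.03 to 0.27) in DAM cells. The Hcar2 ratio was above 0 in 7 of 7 and its interval in 6, and it was at 0.72 (0.59 to 0.85) in homeostatic and 0.31 (0.07 to 0.56) in DAM cells. The S1pr1 ratio was above 0 in 6 of 7 and its interval in 4, and it was at 0.60 (0.53 to 0.68) in homeostatic cells, while in DAM cells it was at −0.06 (−0.24 to 0.13). For these 3 receptors the interval in DAM cells lay below that in homeostatic cells, which covers counting error and was not tested between mice. The gates are parts of the same libraries and are not repeats. Their sex mix differed too. Of interferon cells called for sex, 27.5% were female in VEH and 50.5% in LEM, and in the MHC class II gate 20.3% and 46.2%.

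Within the sex pools Gpr84 was at 0.57 and 0.28 in homeostatic and 0.19 and 0.15 in DAM cells of females and males. Hcar2 was at 0.87 and 0.71 in homeostatic cells and at 0.07 and 0.43 in DAM cells. S1pr1 was at 0.30 and 0.81 in homeostatic cells and at −0.27 and 0.24 in DAM cells. Each DAM value was below the homeostatic value of its sex. The intervals of the gates were apart for all 3 receptors in females, but in males only for S1pr1, while those of Gpr84 (−0.03 to 0.33 against 0.23 to 0.34) and Hcar2 (0.09 to 0.78 against 0.52 to 0.89) overlapped. In the other 6 microglial gates, the ratios of these 3 receptors below 0 in a sex were those of Gpr84 in interferon cells of males, at −0.13 (−0.40 to 0.14), and of S1pr1 in intermediate cells of females, at −0.03 (−0.29 to 0.24).

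Ptafr, Ptger4 and Gpr165 had ratios of −0.01, 0.08 and −0.11 in homeostatic cells and −0.03, −0.31 and −0.15 in DAM cells. The intervals of all 3 in DAM cells held 0. The Ltb4r1 counts of the homeostatic gate gave 1.56 (0.79 to 2.40).

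**Figure D4:**
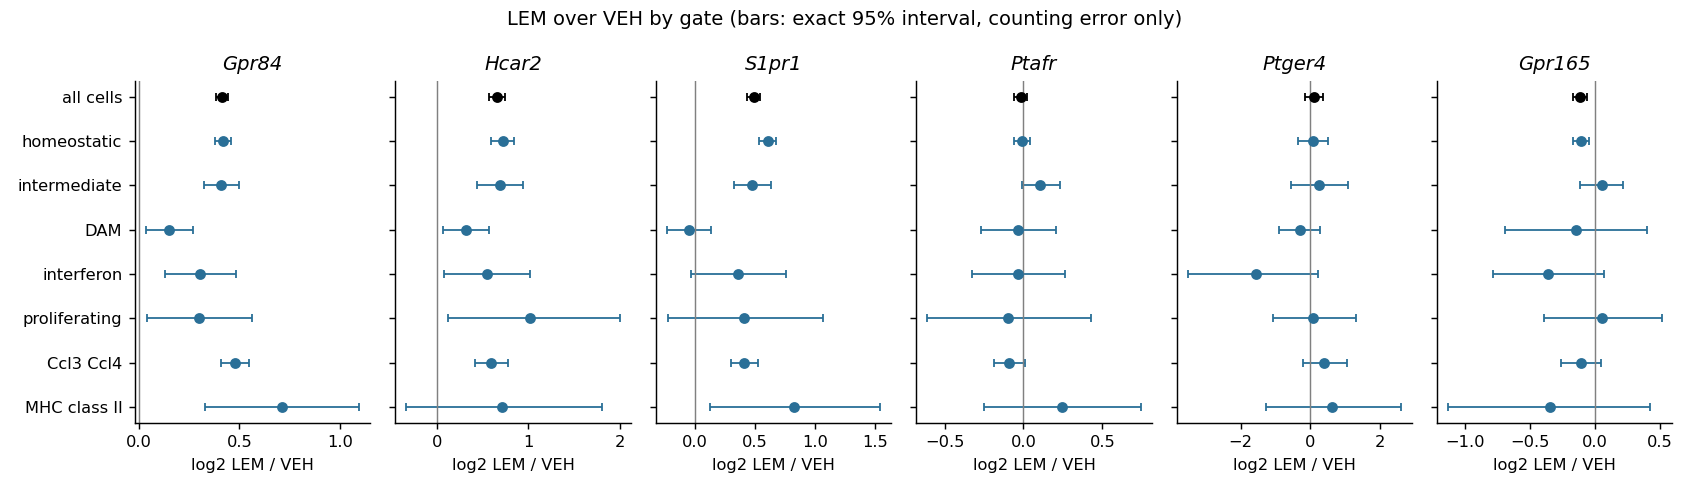
Log2 ratio of LEM over VEH for 6 receptors in all cells (black) and in 7 microglial gates (blue), with exact 95% intervals that cover counting error only. The values of Gpr84, Hcar2 and S1pr1 lie above 0 in homeostatic cells and nearer 0 in the DAM gate, where S1pr1 is at −0.06. Ltb4r1 has too few counts to be drawn.

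Gpr84 also had a tail of cells with many counts. Cells with 10 or more Gpr84 counts numbered 21 in VEH (0.114%) and 65 in LEM (0.266%), with a maximum of 34 and 44 counts. In VEH 8 of 21 were in the DAM gate and 6 in the Ccl3 Ccl4 gate, and in LEM 11 of 65 were in the DAM gate and 25 in the Ccl3 Ccl4 gate. These cells were picked after their values were seen. They held 2.11% of Gpr84 counts in VEH and 4.23% in LEM, and without them the ratio of LEM over VEH was 0.39 (0.35 to 0.42).

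The inflammatory cytokine genes Tnf and Il1b were high in the same cells. Tnf was at 474 CPM in VEH and 690 in LEM, against 35.0 and 31.2 in all other cells, and Il1b was at 209 and 233 CPM against 5.33 and 5.91. Hcar2 was also higher there, at 97.6 and 93.9 CPM against 13.5 and 21.2. Ptafr was at 102 and 124 CPM against 71.7 and 70.6, with an interval that held 0 in VEH. S1pr1 was higher in VEH (69.7 against 37.6 CPM) but lower in LEM (31.8 against 52.9). Gpr165 was lower in both, at 9.29 and 15.9 CPM against 44.0 and 40.6. The intervals of its log2 ratio were wide, from −5.29 to −0.39 in VEH and from −2.36 to −0.51 in LEM. Its VEH level rested on fewer than 3 counts. Taken from the side of the cytokine, cells with 3 or more Il1b counts (48 in VEH and 71 in LEM) had Gpr84 at 245 CPM (202 to 295) and 518 CPM (464 to 577). The Gpr84 ratio of LEM over VEH in those cells was 1.08 (0.77 to 1.40). Of them, 4 in VEH and 9 in LEM were also cells with 10 or more Gpr84 counts, and they held 53 of the 112 and 197 of the 328 Gpr84 counts. Without them, an alternative chosen after seeing the data, Gpr84 was at 141 and 237 CPM, a ratio of 0.75 (0.29 to 1.21).

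Counts of several receptors in a single cell were looked at after thinning only, since depth sets how many are seen. Thinned to 2000 counts, 60.5% of homeostatic VEH cells and 54.6% of homeostatic LEM cells held none of Gpr84, Hcar2, S1pr1, Ptafr and Gpr165, and 6.72% and 8.89% held exactly 2 of these. Of DAM cells, 8.70% in VEH and 10.5% in LEM held exactly 2. Gpr84 was held by a larger share of the cells with Hcar2 than of those without, though most cells with Hcar2 had no Gpr84 count: of homeostatic cells with a Hcar2 count, 23.5% in VEH and 33.1% in LEM held Gpr84, against 17.5% and 22.4% of those without. In DAM cells the shares were 43.2% and 36.1% against 28.4% and 29.8%, from only 44 and 61 cells with Hcar2. These counts are sparse and the shares are given as a description.

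Over 14 points, 7 microglial gates in each library, the genes with the most similar profile (Pearson's r of log2 CPM with a pseudocount of 1, over genes detected in 5% of cells) were taken for each receptor. Gpr84 was most like Hcar2 (r = 0.88), then Ctla2b (0.84) and Actb (0.84). Hcar2 was most like Evi2a (0.89), Cd48 (0.89) and Cd9 (0.89), and S1pr1 was most like Clint1 (0.95), Colgalt1 (0.93) and Dusp3 (0.92). Ptafr was most like Lifr (0.99), Cyp4f13 (0.98) and Dennd1c (0.98). Ptger4 was most like Myo5a (0.96), Sh3bgrl3 (0.95) and St8sia4 (0.94), and Gpr165 was most like Map3k3 (0.98), Ctnnd2 (0.98) and Nrip1 (0.98). For Ltb4r1 the nearest were Acyp1 (0.92), Dph7 (0.89) and Pced1a (0.89), over few counts. Among the receptors themselves, Hcar2 and Gpr165 had opposite profiles (r = −0.84) and Hcar2 and S1pr1 like ones (0.81). The points share 2 libraries, and the gates differ in depth.

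Droplets of the choroid plexus gate held counts of these receptors too, other than Ltb4r1, with Ptger4 at only 1 count in each library. These droplets, with Ttr at 96740 and 153952 CPM, held Gpr84 in 51.0% of VEH and 42.7% of LEM droplets, or 14.9% and 11.0% after thinning, against 17.6% and 22.8% of thinned homeostatic cells. Ctss, C1qa and C1qb there were at 13440 and 11138 CPM in sum, so microglial RNA was in these droplets. Per 1000 counts of these 3 genes, Ptafr was at 3.42 and 3.87 against 3.69 and 3.53 in homeostatic cells. Gpr84 was at 9.18 and 9.49, from 59 and 135 counts, against 5.16 and 6.64 in homeostatic cells. In DAM cells Gpr84 was at 8.66 and 9.49 and in proliferating cells at 8.72 and 10.2, while the other microglial gates were lower. Gpr165 in the droplets was at 1.40 and 1.48 against 2.54 and 2.28 in homeostatic cells, from 9 and 21 counts. What these differences come from was not tested.

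Other receptors for lipids and metabolites had ratios on both sides of 0. Of 47 listed, 14 were detected in 1% of cells, with 2 higher and 1 lower in LEM by at least 0.32 on the log2 scale, beside 3.98% and 2.87% of 11910 genes, and a median log2 ratio of 0.02 against 0.01 over all genes tested. The 2 higher were Gpr35 (0.53), a receptor for tryptophan metabolites, and the proton sensor Gpr4 (0.93, from 129 and 340 counts, detected in 0.669% of VEH and 1.33% of LEM cells, so that it entered only through the library where it was higher), and the lower was S1pr2 (−0.48), another sphingosine-1-phosphate receptor, all 3 named after their values were seen. S1pr2 thus lay on the other side of 0 from S1pr1, at −0.89 in females and only −0.17 in males. The 4 with the most counts, named by that rule, were Gpr34 (lysophosphatidylserine), Gpr183 (oxysterols), Lpar6 (lysophosphatidic acid) and Cmklr1 (chemerin), with ratios of −0.01, −0.06, 0.17 and −0.18.

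In the DAM gate 1 of the 14 was higher by 2-fold in both libraries and 4 were lower, beside 3.18% and 4.63% of all genes tested. The median of the 14 was −0.47 in VEH and −0.44 in LEM, against −0.31 and −0.32 over all genes. The higher was the proton sensor Gpr65 (3.39 and 3.23), and the lower were Ptger3 (−2.74 and −2.02), Cysltr1 (−1.01 and −1.15), Lpar6 (−1.56 and −1.42) and Gpr35 (−2.82 and −1.11). In DAM cells Gpr35 was at only 0.752 CPM in VEH, near a floor of 3 counts, and at 3.49 in LEM. The prostaglandin E2 receptors thus differed, with Ptger4 higher and Ptger3 lower in DAM cells. Ptger1 was at −0.64 and −0.35, and Ptger2 held 5 and 12 counts in all cells.

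Of the 31 listed genes that make or break down the ligands, 23 were tested, and 0 of these were past 0.32 on the log2 scale in either direction, beside 3.98% higher and 2.87% lower of all genes tested, with a median of −0.04. In cells of 1 sex, Hpgd (−0.71 in females, 0.13 in males), Pafah2 (0.45 and −0.09) and Alox5 (−0.34 in females) were past it. Among the 8 detected in under 1% of cells, the prostaglandin D2 synthase Ptgds had 313 and 1528 counts and a ratio of 1.82, with a lower bound of 1.64. By sex the Ptgds ratio was 0.37 in females and 2.34 in males. Also higher were the ketone body enzyme Bdh1 (11 and 56 counts, 1.88) and Pla2g7, which breaks down platelet-activating factor (120 and 220 counts, 0.41). The prostaglandin E synthase Ptges was lower, at −2.20 (−4.70 to −0.25), from only 10 and 3 counts. All these genes were named after their values were seen. In homeostatic cells Ptgds was at 0.219 and 0.353 CPM, against 2.69 and 9.51 in all cells. Bdh1 was there at 0.041 and 0.032 CPM, at a floor of 3 counts in both libraries, so no ratio is given for it in that gate. The choroid plexus markers were higher in LEM too, and their part in the Ptgds ratio was not tested. Alox5ap, which presents arachidonic acid for leukotriene synthesis, was the 1 of the 23 past 2-fold in the DAM gate, lower at −1.43 and −1.27, beside 4.63% of all genes lower and 3.18% higher. Ptgs1, which makes prostaglandin precursors, was at 655 CPM in both libraries. Of 29 genes of G protein signalling tested (30 listed), 1 was lower in LEM, the receptor kinase Grk5 (−0.45, −0.56 to −0.34), and 0 were higher, beside 2.87% and 3.98% of all genes. In DAM cells 1 of the 29 was higher and 1 lower, beside 3.18% and 4.63%. There Gnas, the stimulatory alpha subunit that receptors such as Ptger4 use, was higher (1.36 and 1.44), and the cAMP phosphodiesterase Pde4b was lower (−1.06 and −1.38). The orexin receptors that LEM blocks were at 2 and 1 counts (VEH and LEM) for Hcrtr1 and also for Hcrtr2, at or under a floor of 3 counts, so no ratio is given.

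**Figure D5:**
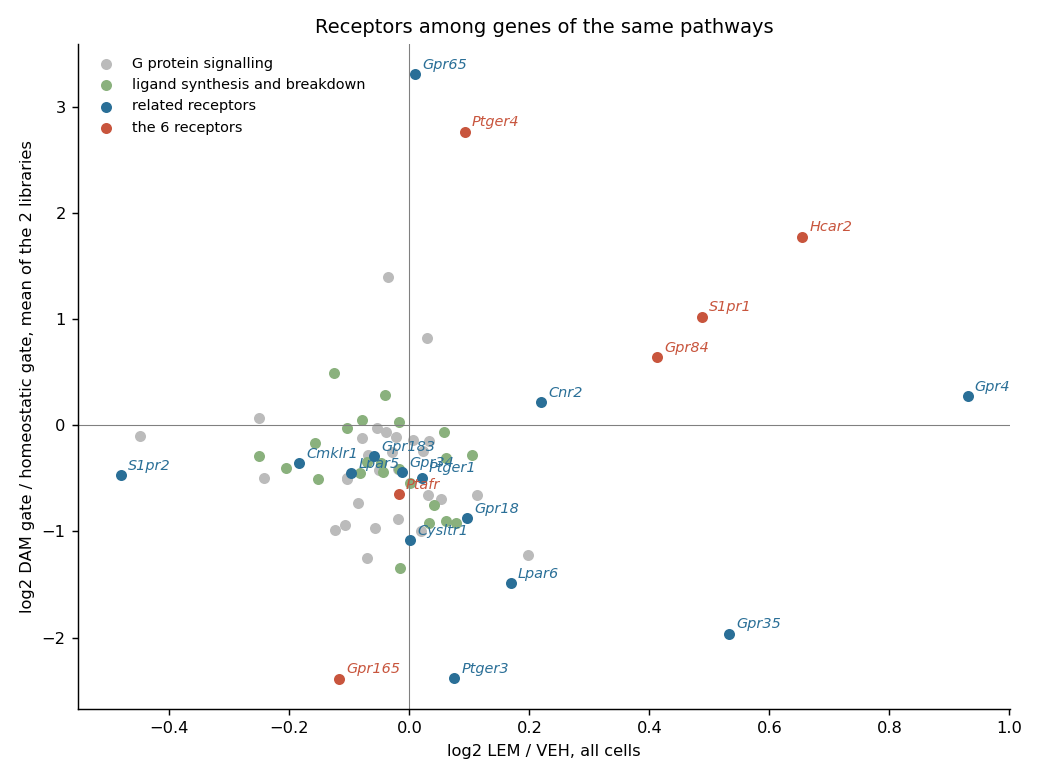
Log2 ratio of LEM over VEH in all cells (x) against log2 ratio of the DAM over the homeostatic gate, averaged over the libraries (y), for the 6 receptors (red), 14 related receptors (blue), 23 genes of ligand synthesis and breakdown (green) and 29 genes of G protein signalling (grey). Hcar2, S1pr1 and Gpr84 lie to the upper right, Ptger4 and Gpr65 at the top near 0 on x, and Gpr165 and Ptger3 at the bottom.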

How the data were processed

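The authors prepared 10x Chromium 5′ libraries and used Cell Ranger 8.0.0 with mm10. SoupX is named for ambient RNA, and their filters kept cells of at least 500 genes, at most 20000 counts and at most 2.5% mitochondrial reads. The deposited table holds whole-number UMI counts per gene and cell, without normalization, and it is unknown if they include the SoupX step. With 1 library per treatment no p-value is given. CPM, exact Poisson intervals of sums, Clopper-Pearson intervals of shares and exact conditional binomial intervals of ratios were computed in Python 3.11.15 with scipy 1.17.1, numpy 2.4.6, matplotlib 3.10.9 and pandas 2.3.3. The ratio, interval and call steps between libraries were run on simulated Poisson counts with known ratios. Gates, sex calls and profiles were not simulated, nor was spread between cells or mice. A gene counted as tested when detected in at least 1% of the cells of either library. The genes named are the 7 receptors, listed genes past 0.32 on the log2 scale that were detected in 5% of cells, the 4 most counted related receptors, the 3 nearest profiles and the orexin receptors. Other names were chosen after their values were seen. The receptors and all lists were chosen with earlier results of these data known. Cells with transcripts of both sexes (5.34% of VEH and 7.23% of LEM), a sign of doublets, were kept and left out in an alternative. Positions are from GENCODE M21.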

Additional observations from a re-analysis of the deposited data

Results flagged for a closer look

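For 2 receptors the sexes moved in opposite directions between the libraries. Among cells called female, the Gpr165 log2 ratio of LEM over VEH was 0.19 (0.09 to 0.29), and among cells called male it was −0.20 (−0.27 to −0.13). The Ptafr ratio was −0.048 (−0.12 to 0.02) for female cells but 0.050 (−0.01 to 0.11) for male cells, and both intervals held 0. Each value compares 1 pool with 1 pool, and the difference between the sexes was not tested.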

How the results depend on the processing

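Of the alternative values for the 7 single-gene ratios, 82 of 98 lay within the interval of the reported ratio. The settings that changed only the detection filter could not change such a ratio, so their values, counted among the 82, repeat the reported ones. The sign changed in 4: Ltb4r1 was at −0.077 without cells that held an astrocyte or endothelial marker, Ptger4 at −0.27 after thinning, Gpr165 at 0.19 in female cells and Ptafr at 0.050 in male cells. The count of receptors higher in LEM stayed between 2 and 4 under 14 alternatives. It was 2 in female cells, where S1pr1 was at 0.19, and 2 in male cells, where Gpr84 was at 0.30. With detection asked in 10% of cells, Hcar2 entered only through LEM, where it was higher (7.04% of VEH and 11.2% of LEM cells). The count higher in the DAM gate was 1 with that filter, where Ptger4 was not tested, and 2 to 3 under the other 6. The share of all genes past each fold under these alternatives is not given, so nothing is read from these counts. After thinning, the S1pr1 ratio was 0.59. The alternative that disregarded Bsg was chosen after seeing the data, as was one that set VEH and LEM to equal gate shares. No paired analysis was possible because each treatment is 1 library. Intervals hold counting error only, so differences between mice are not covered. Depth limits Ltb4r1 and Ptger4 most.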
